A study of Mus musculus with 6 samples.

Results

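Microglia are the resident macrophages of the retina and the brain, and 9 genes that mark them were followed here through retinal endothelial cell preparations: Csf1r, Cx3cr1, P2ry12, Tyrobp, C1qa, C1qb, C1qc, Ctss and Aif1. The genes were taken by symbol from a table of 24421 rows, and all 9 were found. All 9 were also among the 13622 genes with at least 1 FPKM (fragments, adjusted for gene length and sequencing depth) in at least 3 libraries.

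Microglia arise from yolk sac progenitors, settle in the retina before its vessels have finished growing, and stay close to the vascular front during the first postnatal weeks. Their survival depends on the receptor Csf1r, their contact with neurons and injured tissue runs through Cx3cr1 and P2ry12, and they prune synapses and clear dying cells with the help of complement C1q.

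RNA sequencing was carried out on 6 libraries from the retinas of C57BL/6 pups at postnatal day 7. The 3 mutant libraries came from Anxa3 fl/fl;Tie2-Cre pups and the 3 control libraries from Anxa3 fl/fl pups. Both groups carry floxed alleles of Anxa3, which encodes a calcium-dependent phospholipid-binding protein, and only the mutants carry Cre, so effects of Cre and of Anxa3 loss cannot be told apart. The Tie2 promoter drives Cre in endothelial cells and is also active in the blood lineage from which microglia derive, so the mutation need not be limited to the endothelium. The study asked which genes respond to the loss of Anxa3, with the crossing of retinal arteries and veins in mind. The labels do not say how many pups went into a library, so p-values speak only of the spread among these 6 libraries, which may be technical. Each library also has a letter of unstated meaning, with mutant replicate 1 lettered B beside control replicates 1 and 2 (A and C), and mutant replicates 2 and 3 lettered E and F beside control replicate 3 (D).

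The promoters of the members carry a possible common feature, since PU.1, the transcription factor that macrophages and microglia require, binds sequences around the letters GAGGAAGT. RefSeq promoters (GRCm38.p6) were at hand for 6 of the 9 members: Aif1, C1qb, C1qc, Ctss, Cx3cr1 and P2ry12. Within the 250 bases before the annotated start, on either strand, GAGGAAGT stood in 1 of the 6, C1qc, and in 2.44% of 32851 promoters of all genes. The shorter GAGGAA, which also counts every copy inside the longer motif, stood in 4 of the 6 and in 23.3% of all promoters. A composite of an ETS and an IRF site, GGAA and GAAA with any 2 bases between them, stood in 0 of the 6 and in 2.30% of all promoters. A match describes letters only and is not a binding site. The stretches below show where the letters lie in C1qc, C1qb and Ctss, written 5′ to 3′ along the gene, with each motif in capitals and with bases inside the GENCODE M21 gene model left out.
C1qc, chr4:136893066-136893164, minus strand: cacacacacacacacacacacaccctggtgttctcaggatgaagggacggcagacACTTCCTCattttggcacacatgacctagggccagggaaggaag
C1qb, chr4:136886201-136886450, minus strand: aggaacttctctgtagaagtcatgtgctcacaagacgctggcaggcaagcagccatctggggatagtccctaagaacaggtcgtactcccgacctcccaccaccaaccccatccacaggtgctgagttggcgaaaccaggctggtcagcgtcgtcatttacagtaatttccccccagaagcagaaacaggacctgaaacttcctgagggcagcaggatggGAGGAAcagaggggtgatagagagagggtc
Ctss, chr3:95526536-95526785, plus strand: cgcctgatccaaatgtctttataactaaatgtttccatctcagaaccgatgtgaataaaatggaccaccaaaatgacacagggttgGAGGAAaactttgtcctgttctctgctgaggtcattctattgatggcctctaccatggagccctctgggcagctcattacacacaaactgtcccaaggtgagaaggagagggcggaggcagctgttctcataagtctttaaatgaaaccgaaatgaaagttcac
In C1qc the capitals are GAGGAAGT read on the opposite strand, from 195 to 188 bases before the RefSeq start. In C1qb the shorter motif lies from 30 to 25 bases before the start, and in Ctss from 164 to 159 bases before it. The fourth match, in Aif1, lies from 7 to 2 bases before the RefSeq start and inside the GENCODE gene model.

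The recovered reads came to 21386054 to 30861790 per mutant library and to 24100782 to 30904076 per control library, and mutant replicate 1 was the shallowest of the 6. Anxa3 measured 9.78, 12.5 and 15.1 FPKM in mutant replicates 1, 2 and 3, against 18.7, 17.7 and 43.4 FPKM in control replicates 1, 2 and 3. The groups did not overlap, and a two-sided exact permutation test gave p = 0.1, the smallest value that 3 against 3 libraries allow. Against the cell type in the labels, the preparations held much RNA of other retinal cells. The summed level of 8 photoreceptor genes ranged from 3689 to 4896 FPKM in mutants and from 2984 to 4622 FPKM in controls. The summed level of 12 endothelial genes ranged from 597 to 845 FPKM in mutants and from 558 to 1277 FPKM in controls. Control replicate 3 held both the highest endothelial sum and the highest Anxa3 value, and a link between them was not tested. The 9 microglia markers were a minor component, with sums of 28.0 to 81.4 FPKM in mutants and 50.1 to 68.6 FPKM in controls.

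All 9 markers were detected in every library, and none passed a test of mutant against control libraries. In GRCm38, Cx3cr1 lies on chromosome 9 from 119901616 to 120069879 and P2ry12 on chromosome 3 from 59216272 to 59262871, both on the minus strand. Tyrobp lies on chromosome 7 from 30413760 to 30417585 and Ctss on chromosome 3 from 95526786 to 95556403, both on the plus strand, and Aif1 on chromosome 17 from 35170991 to 35176068 on the minus strand. Each member was covered by between 16 and 834 reads per library. Of the 9 markers, 0 passed limma at a Benjamini-Hochberg adjusted p under 0.05, beside 0% of the 13622 genes tested, and 0 had an unadjusted p under 0.05, beside 1.21% of genes. Limma voom on the recovered reads also called 0 genes. The 2 groups of libraries overlapped for every marker, while they did not overlap for 4.35% of genes. Mutant replicate 1 stood apart, with 7 of the 9 markers at 0.341 to 0.486 of their mean in the other 5 libraries. In bulk RNA, fewer microglia and less RNA per microglial cell cannot be told apart.

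The receptors come first. Csf1r, the receptor for the survival factors Csf1 and Il34, measured 3.15, 6.47 and 7.74 FPKM in mutant replicates 1, 2 and 3, against 6.71, 7.81 and 6.58 FPKM in control replicates 1, 2 and 3. The first mutant library was far below the rest, and the other 2 mutant libraries lay within or beside the control range. The means were 5.79 ± 2.37 FPKM in mutants and 7.03 ± 0.68 FPKM in controls (SD, n = 3 each). The difference on the log2(FPKM + 1) scale, mutant minus control, was -0.31 with a limma 95% interval from -0.91 to 0.29. Csf1r lies on the plus strand of chromosome 18 and shares 873 of its 5774 exonic bases with Hmgxb3 on the opposite strand, a gene at 20.5 to 22.2 FPKM in mutants and 21 to 22.3 FPKM in controls. Strand use in the counting is not given in the sources used here, so some Csf1r reads may belong to Hmgxb3.

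Cx3cr1, the receptor for the neuronal chemokine fractalkine, followed Csf1r closely. It measured 2.01, 4.28 and 4.76 FPKM in mutant replicates 1, 2 and 3, against 4.75, 5.34 and 3.59 FPKM in control replicates 1, 2 and 3. Mutant replicate 1 was again the lowest library, and the log2 difference between the groups was -0.29 (limma 95% interval -0.88 to 0.30). The ratio of Cx3cr1 to Csf1r FPKM stayed within 0.615 to 0.661 in mutants and 0.546 to 0.708 in controls. P2ry12, the purinergic receptor that guides microglial processes to injured cells, was scarcer, at 1.18, 1.90 and 1.40 FPKM in mutants and 2.22, 1.70 and 1.24 FPKM in controls, each in replicate order. Its lowest library was also mutant replicate 1, a little below control replicate 3. Its log2 difference was -0.12 (limma 95% interval -0.55 to 0.31).

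Tyrobp, the adaptor also called DAP12 that couples Trem2 and other surface receptors to the kinase Syk, varied as widely as any member. It measured 3.52, 8.45 and 13.3 FPKM in mutant replicates 1, 2 and 3, against 10.8, 10.3 and 6.62 FPKM in control replicates 1, 2 and 3. The mutants thus held both the lowest and the highest library, and the controls lay between them. The means were 8.44 ± 4.91 FPKM in mutants and 9.22 ± 2.27 FPKM in controls (SD, n = 3 each), and the log2 difference was -0.24 (limma 95% interval -1.14 to 0.66).

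C1qa, C1qb and C1qc encode the A, B and C chains of C1q, the recognition molecule of the classical complement pathway, which in the nervous system is made chiefly by microglia. They lie side by side on the minus strand of chromosome 4 in GRCm38, C1qb from 136880129 to 136886187, C1qc from 136889804 to 136893065 and C1qa from 136895917 to 136898803. C1qa measured 4.12, 10.5 and 14.3 FPKM in mutant replicates 1, 2 and 3, against 12.7, 10.6 and 6.78 FPKM in control replicates 1, 2 and 3. C1qb measured 2.82, 7.08 and 9.61 FPKM in the mutants, against 7.66, 9.53 and 7.46 FPKM in the controls. C1qc measured 4.32, 8.38 and 14.0 FPKM in the mutants, against 10.02, 9.68 and 7.29 FPKM in the controls. All 3 chains were lowest in mutant replicate 1 and highest in mutant replicate 3, so the control range sat inside the mutant range for each of them. Their log2 differences were -0.15 for C1qa, -0.41 for C1qb and -0.13 for C1qc, with limma 95% intervals that all crossed 0.

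The proportions of the 3 chains varied far less than their sum. Together they came to 11.3, 26.0 and 37.9 FPKM in mutant replicates 1, 2 and 3, against 30.4, 29.8 and 21.5 FPKM in control replicates 1, 2 and 3. C1qa made up 38.3 ± 2.03% of the sum in mutants and 36.3 ± 5.19% in controls, C1qb 25.9 ± 1.20% in mutants and 30.6 ± 4.85% in controls, and C1qc 35.9 ± 3.22% in mutants and 33.1 ± 0.713% in controls (SD, n = 3 each). In mutant replicate 1, where the sum was lowest, the shares were 36.6% for C1qa, 25.0% for C1qb and 38.4% for C1qc. Its C1qb share was the lowest and its C1qc share the highest of the 6 libraries. Tyrobp kept a similar proportion to the C1q sum, at 0.313 to 0.352 in mutants and 0.307 to 0.354 in controls. Ctss and Csf1r varied more against that sum. For Ctss the ratio was 0.508 in mutant replicate 1, 0.397 and 0.376 in mutant replicates 2 and 3, and 0.382 to 0.458 in controls. For Csf1r it was 0.204 to 0.280 in mutants and 0.221 to 0.306 in controls.

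Ctss, which encodes the lysosomal protease cathepsin S, was the most abundant member per length, averaging 10.8 ± 2.96 FPKM over the 6 libraries (SD). It measured 5.73, 10.3 and 14.3 FPKM in mutant replicates 1, 2 and 3, against 11.6, 12.8 and 9.85 FPKM in control replicates 1, 2 and 3. Mutant replicate 1 was the lowest library and mutant replicate 3 the highest, and the log2 difference was -0.23 (limma 95% interval -0.87 to 0.40). Aif1, which encodes the calcium-binding protein Iba1 used to stain microglia, was the least abundant and went its own way. It measured 1.19, 1.28 and 1.93 FPKM in mutant replicates 1, 2 and 3, against 1.67, 0.755 and 0.706 FPKM in control replicates 1, 2 and 3. Its lowest library was control replicate 3, not mutant replicate 1, and its log2 difference of 0.29 (limma 95% interval -0.21 to 0.80) was the only positive one among the members. It was 0.53 with a pseudocount of 0.1 FPKM and 0.56 with limma voom on the recovered reads. Its values rest on 22, 35 and 47 reads in the mutants and 45, 16 and 16 reads in the controls.

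By mean FPKM over the 6 libraries the order of the members ran Ctss, C1qa, C1qc, Tyrobp, C1qb, Csf1r, Cx3cr1, P2ry12 and Aif1. The 4 most abundant had means from 8.83 to 10.8 FPKM and changed places between libraries: Ctss exceeded C1qa in 3 of 6, C1qa exceeded C1qc in 4 of 6 and C1qc exceeded Tyrobp in 3 of 6. The steps from Csf1r (6.41 ± 1.70 FPKM) to Cx3cr1 (4.12 ± 1.19 FPKM) and from Cx3cr1 to P2ry12 (1.6 ± 0.407 FPKM) held in 6 of 6 libraries (SD, n = 6). P2ry12 exceeded Aif1 in 4 of 6.

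**Figure D1:**
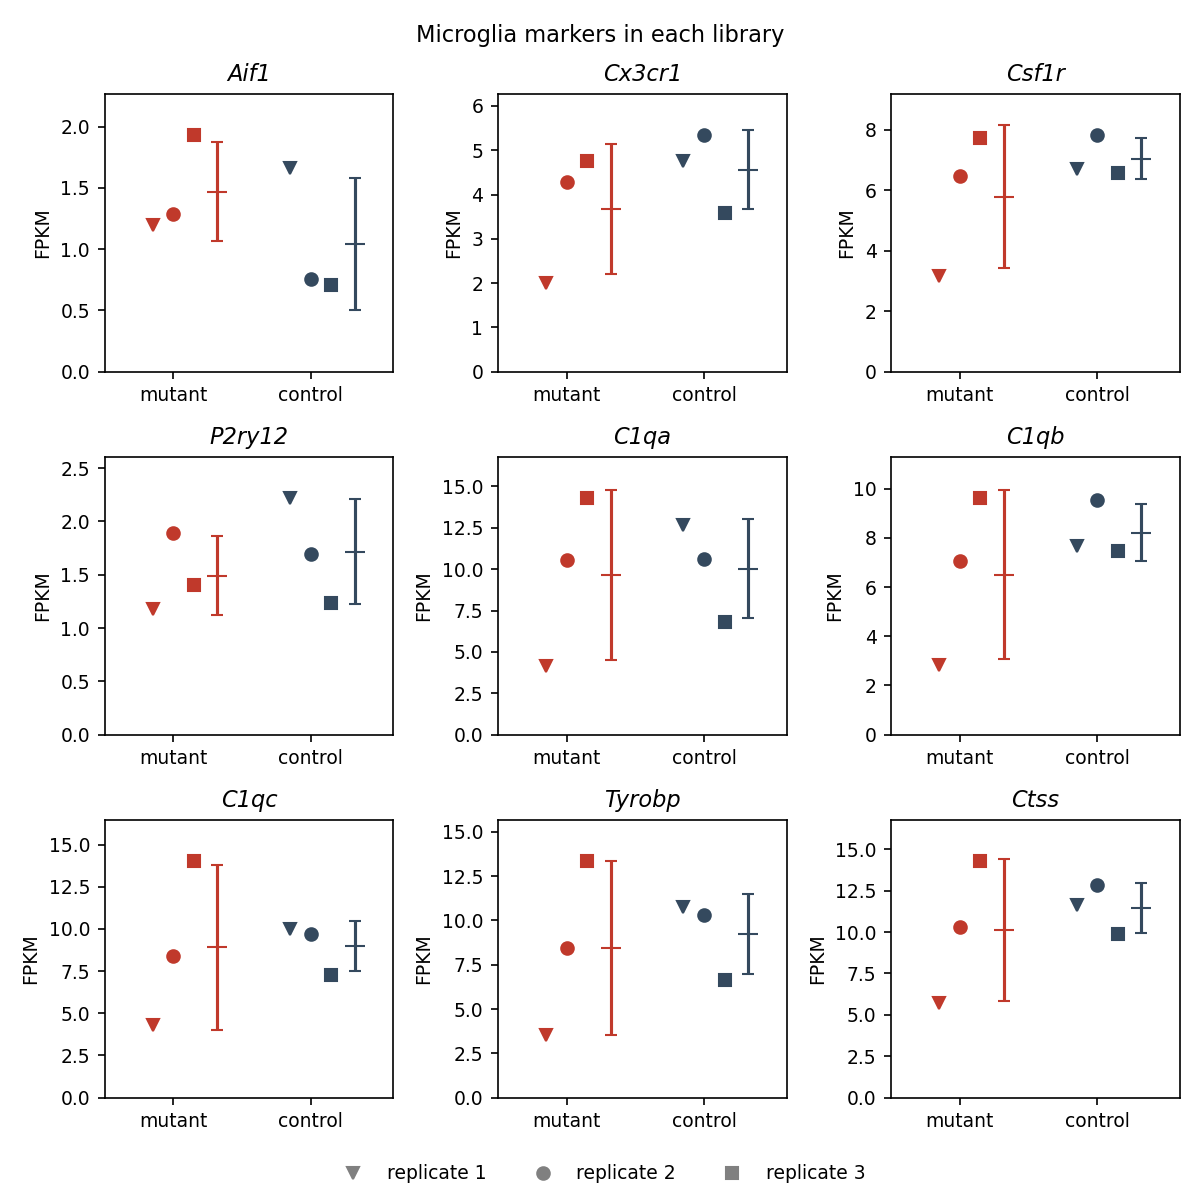
FPKM of each of the 9 microglia markers (vertical axes, linear, each starting at 0) in the 3 mutant and 3 control libraries, with replicate numbers shown by symbol and with the group mean and SD as a bar. Mutant replicate 1 is the lowest point in 8 of 9 panels, Aif1 being the exception, and the groups overlap in all of them.

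Set against all genes, the group differences of the markers leaned one way. The mutant mean was lower for 8 of 9 markers, beside 52.5% of all genes tested, and the median log2 difference was -0.23 over the 9 markers and -0.01 over all genes. The limma adjusted p was 1 for each of the 9, and two-sided exact permutation tests gave p from 0.3 to 0.8, where 0.1 is the smallest possible. The 95% intervals reached as low as -1.19, for C1qb, and as high as 0.80, for Aif1, and all 9 included 0.

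Without mutant replicate 1 the lean turned. On the log2(FPKM + 1) scale, the mean of mutant replicates 2 and 3 was then higher than that of the 3 controls for 8 of 9 markers. The share over the 13561 genes tested was 48%, and the exception among the markers was P2ry12. In plain FPKM the mean of Cx3cr1 was also slightly lower, at 4.52 in mutant replicates 2 and 3 against 4.56 in controls. The median log2 difference over the markers was 0.09, beside -0.01 over all genes. The widest were those of Aif1, at 0.37 (limma 95% interval -0.21 to 0.96), and C1qa, at 0.31 (-0.29 to 0.91). The receptors were near 0, with 0.01 for Csf1r (-0.31 to 0.33) and 0.00 for Cx3cr1 (-0.40 to 0.41). Again 0 of 9 passed limma with Benjamini-Hochberg adjustment, beside 0% of genes, and the smallest adjusted p among them was 0.879, with no unadjusted p under 0.05. A genotype difference in these markers was therefore not detected with or without that library, and its sign for 7 of the 9 depended on the library.

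**Figure D2:**
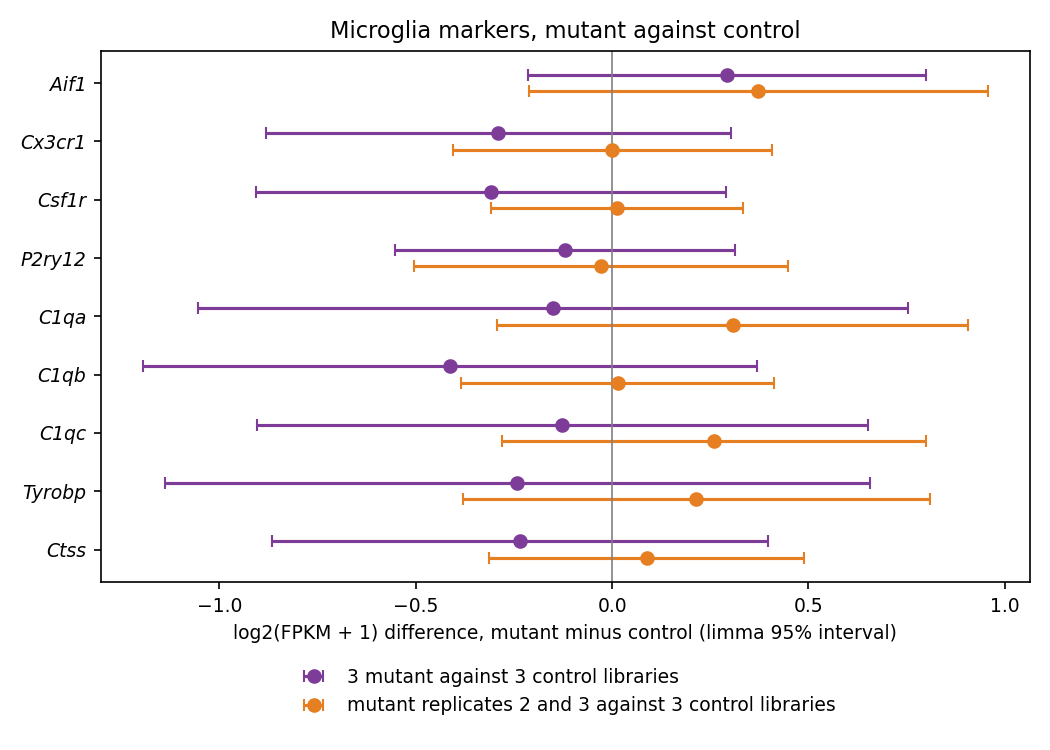
Difference in log2(FPKM + 1), mutant minus control, for each marker (horizontal axis), with limma 95% intervals, from all 6 libraries and from the 5 libraries without mutant replicate 1. All intervals cross 0, and 7 of 9 points move from below to above 0 when that library is left out.

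The libraries were also divided by letter into A to C and D to F, a cut made here that the labels do not give. The A to C part rests on mutant replicate 1, whose low level was known beforehand. Among the libraries lettered A to C, mutant replicate 1 was below both control replicates for 8 of 9 markers, all but Aif1, beside 29% of genes. Among those lettered D to F, mutant replicates 2 and 3 were both above control replicate 3 for 7 of 9 markers, all but Csf1r and C1qb, beside 38.6% of genes. For C1qa the log2 difference was -1.30 among A to C and 0.77 among D to F, and for Tyrobp it was -1.35 and 0.61 in the same order. Csf1r, at -0.99 and 0.09, and Cx3cr1, at -1.0 and 0.26, moved less among D to F. Each division holds 1 library of a genotype and 2 of the other, so it allows no test within it, and the difference between the divisions was not tested. Control replicate 3 was the lowest control for 9 of 9 markers, beside 43% of genes, and mutant replicate 3 was the highest of all libraries for 6 of 9, beside 14.9% of genes.

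The low level in mutant replicate 1 was known when these markers were chosen, and its size is given as a description of 1 library. The 9 markers summed to 28.0 FPKM there, against 58.7 and 81.4 FPKM in mutant replicates 2 and 3 and 68.1, 68.6 and 50.1 FPKM in the controls, that is 0.429 of the mean of the other 5 libraries. It was the lowest library for 8 of 9 markers, beside 19.2% of genes, and lay at least 0.5 below the mean of the other 5 on the log2(FPKM + 1) scale for 7 of 9, beside 4.42% of genes. From the reads, with exact 95% intervals that cover counting error only, C1qb stood at 0.343 of the other 5 libraries pooled (0.262 to 0.442), Tyrobp at 0.355 (0.254 to 0.485) and C1qa at 0.372 (0.299 to 0.459). The ratios were 0.437 for C1qc (0.352 to 0.538), 0.444 for Cx3cr1 (0.375 to 0.521), 0.448 for Csf1r (0.393 to 0.509) and 0.488 for Ctss (0.414 to 0.572). P2ry12 was less reduced, at 0.688 (0.516 to 0.903), and for Aif1 the ratio of 0.919 (0.560 to 1.44) did not depart from 1 beyond counting error.

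**Figure D3:**
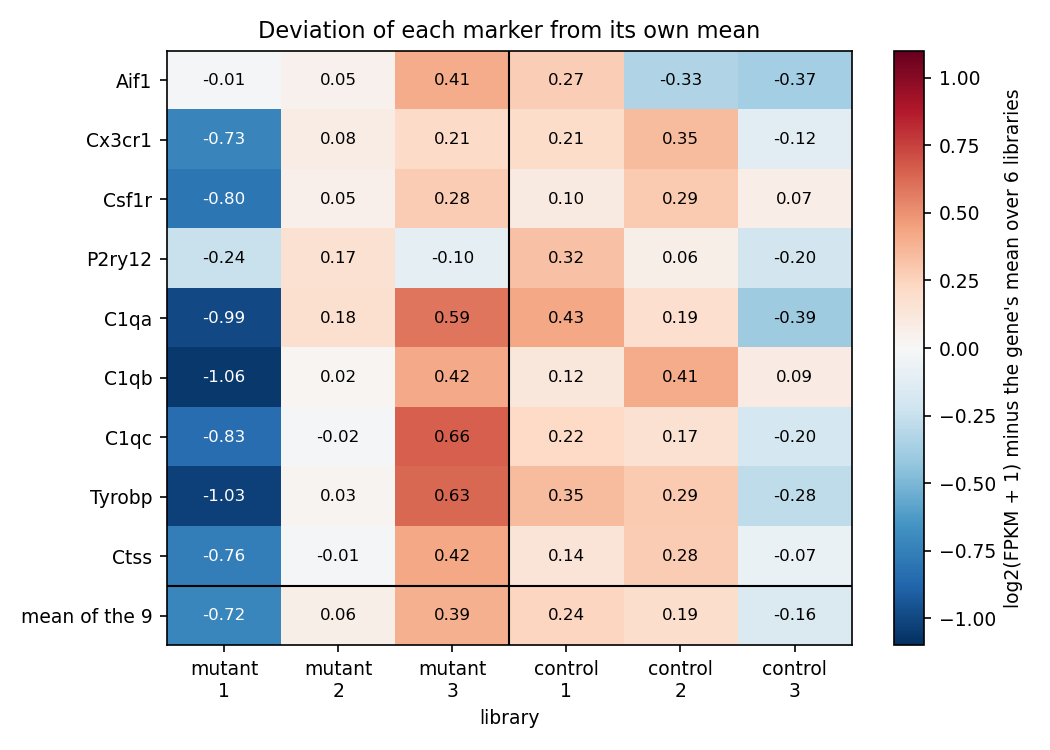
Deviation of each marker from its own mean over the 6 libraries, in log2(FPKM + 1), with mutant libraries on the left and control libraries on the right and the mean of the 9 markers in the bottom row. The mean stands at -0.72 in mutant replicate 1 and at 0.39 in mutant replicate 3, with the controls between -0.16 and 0.24.

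Genes that act with the members were measured beside them. Csf1, a ligand of Csf1r made by several retinal cell types, measured 3.26, 3.16 and 3.15 FPKM in mutant replicates 1, 2 and 3, against 2.76, 2.89 and 4.54 FPKM in control replicates 1, 2 and 3. Il34, the other ligand, made mainly by neurons, measured 1.20, 1.26 and 1.64 FPKM in the mutants, against 1.08, 1.18 and 2.24 FPKM in the controls. Cx3cl1, the fractalkine ligand of Cx3cr1, measured 2.30, 2.57 and 3.60 FPKM in the mutants, against 2.45, 2.93 and 3.79 FPKM in the controls. For all 3 ligands control replicate 3 was the highest library, whereas it was the lowest control for every marker.

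Downstream of Tyrobp, the kinase Syk measured 1.70, 1.61 and 1.87 FPKM in the mutants, against 1.59, 1.71 and 2.63 FPKM in the controls. Trem2, a receptor that signals through Tyrobp, was also lowest in mutant replicate 1, at 0.911, 2.55 and 2.85 FPKM in the mutants and 2.35, 3.42 and 2.19 FPKM in the controls. Siglech, another microglial receptor that uses Tyrobp, stayed under the filter, at 0.139, 0.603 and 0.405 FPKM in the mutants and 0.595, 0.414 and 0.612 FPKM in the controls. Cst3, the abundant secreted inhibitor of cathepsins, ranged from 223 to 274 FPKM in mutants and from 234 to 278 FPKM in controls. Cd74, the invariant chain that cathepsin S cleaves in antigen-presenting cells, ranged from 0.369 to 0.915 FPKM in mutants and from 0.671 to 1.77 FPKM in controls. Of these 8 ligands and partners 6 were tested and 0 passed, with a median log2 difference of -0.07.

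The label of the members was checked against 12 other genes of resident microglia, of which 7 passed the filter and 0 passed limma. Fcrls, an Fc receptor-like gene of mouse microglia, measured 1.6, 4.29 and 5.02 FPKM in mutant replicates 1, 2 and 3, against 4.38, 5.93 and 2.04 FPKM in control replicates 1, 2 and 3. Gpr34, a receptor for lysophosphatidylserine, measured 0.825, 1.71 and 1.63 FPKM in the mutants, against 2.30, 2.37 and 1.06 FPKM in the controls. Fcrls and Gpr34 thus had both mutant replicate 1 and control replicate 3 at the low end.

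Olfml3, a secreted glycoprotein gene, measured 1.15, 1.92 and 1.80 FPKM in the mutants, against 1.61, 1.55 and 2.38 FPKM in the controls. Sall1, the transcription factor that keeps microglial identity and is also expressed outside microglia, measured 1.15, 1.1 and 1.32 FPKM in the mutants, against 1.05, 1.75 and 1.19 FPKM in the controls. Tgfbr1, a TGF-beta receptor that most retinal cells express, measured 27.8, 23.4 and 19.0 FPKM in the mutants, against 27.4, 25.8 and 24.3 FPKM in the controls. Tgfbr1 and Sall1 were not lowest in mutant replicate 1, while the other 5 of the 7 were, beside 19.2% of all genes tested. Tmem119, a marker that appears late in the maturation of microglia, stood at 0.309 to 0.415 FPKM in mutants and 0.278 to 0.409 FPKM in controls. P2ry13, Selplg and Slc2a5, further genes used to mark microglia, also stayed under 1 FPKM in every library. Of the genes under the filter, Tmem119, Selplg and P2ry13 were not lowest in mutant replicate 1. They stood there at 1.03, 0.994 and 0.924 of their mean in the other 5 libraries. Siglech and Slc2a5 were lowest there, at 0.264 and 0.263. The median log2 difference of the 7 tested genes was -0.15, and -0.07 without mutant replicate 1.

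Genes shared by microglia and other leukocytes had the same low library. Of 20 such genes 13 were tested and 0 passed limma. In mutant replicate 1, 11 of the 13 were lowest, beside 19.2% of all genes tested. On the log2(FPKM + 1) scale, 8 of the 13 were at least 0.5 lower there, beside 4.42% of genes. Laptm5, a lysosomal membrane protein of leukocytes, measured 3.39, 5.67 and 7.59 FPKM in mutant replicates 1, 2 and 3, against 5.80, 8.30 and 8.47 FPKM in control replicates 1, 2 and 3. Coro1a, an actin-binding protein, measured 3.80, 5.24 and 6.87 FPKM in the mutants, against 4.85, 6.03 and 7.90 FPKM in the controls. Lyz2, the macrophage lysozyme gene, measured 4.90, 6.68 and 13.1 FPKM in the mutants, against 11.5, 10.5 and 5.88 FPKM in the controls. Laptm5 and Coro1a were highest in control replicate 3, where Lyz2 and all 9 markers were at the low end of the controls. Cyba, a subunit of the phagocyte oxidase that other cells also make, measured 5.82, 7.70 and 14.6 FPKM in the mutants, against 8.75, 7.46 and 12.6 FPKM in the controls. The summed level of the 20 genes was 37.6, 56.5 and 78.4 FPKM in the mutants, against 63.4, 64.2 and 66.0 FPKM in the controls.

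Other families to which the members belong gave values that differed from theirs. Of 12 cathepsins besides Ctss, 11 were tested, 0 passed, and 1 was lowest in mutant replicate 1, beside 19.2% of all genes tested. Ctsd, the aspartic cathepsin of most cells, measured 117, 97.8 and 142 FPKM in the mutants, against 132, 135 and 93.4 FPKM in the controls. Ctsb, a cysteine cathepsin, ranged from 34.5 to 39.6 FPKM in mutants and from 38.9 to 43.1 FPKM in controls. Of 17 complement genes outside C1q, 7 were tested, 0 passed, and 2 were lowest in mutant replicate 1, beside the same 19.2%. Cfp, which encodes properdin of the alternative pathway, measured 12.2, 17.0 and 17.3 FPKM in the mutants, against 12.1, 13.9 and 15.1 FPKM in the controls.

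Genes that mark phagocytic microglia of developing nerve tracts were a further list. Of its 12 genes 8 were tested, 0 passed limma, and 0 of those 8 were lowest in mutant replicate 1, beside 19.2% of all genes tested. Of the 4 under the filter 3 were lowest there, Cst7, Clec7a and Lgals3, named after their values were seen. Spp1, osteopontin, which retinal ganglion cells also make, measured 12.8, 16.5 and 35.2 FPKM in mutant replicates 1, 2 and 3, against 40.6, 36.5 and 6.78 FPKM in control replicates 1, 2 and 3. Apoe, a lipid carrier that Müller glia also make, measured 66.7, 78.5 and 113 FPKM in the mutants, against 80.6, 89.3 and 60.9 FPKM in the controls. Spp1 and Apoe were both lowest in control replicate 3 and next lowest in mutant replicate 1, whereas the summed markers had these libraries the other way round. Of 9 inflammatory cytokine genes and regulators 1 passed the filter, Nfkbiz, a nuclear inhibitor of NF-kappa-B, at 3.77, 4.89 and 5.0 FPKM in the mutants and 3.73, 3.11 and 6.05 FPKM in the controls.

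Markers of other cells that a retinal preparation could hold were summed beside the microglia markers. All 13 genes of monocytes, neutrophils and lymphocytes were under 1 FPKM in every library and 1 of them was listed at 0 in all, with sums of 1.22 to 1.93 FPKM in mutants and 1.28 to 2.30 FPKM in controls. Of 9 genes of perivascular macrophages, 6 were under 1 FPKM in every library. Among them Mrc1, the mannose receptor, stood at 0.0446 to 0.32 FPKM in mutants and 0.163 to 0.341 FPKM in controls, while Stab1, which endothelial cells also express, made up most of the sum at 16.7, 22.0 and 24.3 FPKM in the mutants and 19.2, 19.3 and 41.1 FPKM in the controls.

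In mutant replicate 1, other cell types stood on either side of the median gene, which was 0.01 above its mean elsewhere on the log2 scale. The 8 photoreceptor genes were higher there by a median of 0.39, the 7 pericyte genes by 0.17 and the 4 tested genes of Müller glia and astrocytes by 0.25, while the median of the 12 endothelial genes was -0.35. The markers' median was -0.95, that of the 7 other microglia genes -0.43 and that of the 13 leukocyte genes -0.64. Immediate early genes, which respond to tissue dissociation, had a median of -0.11 in mutant replicate 1. Their sum was nevertheless highest there, at 264 FPKM, against 254 and 214 FPKM in mutant replicates 2 and 3 and 225 to 249 FPKM in controls. Of the 9 immediate early genes 0 were lowest in mutant replicate 1, beside 19.2% of all genes tested. No tested gene on any of these lists had an unadjusted limma p under 0.05 between mutants and controls, and genes under the filter have no p. What part the cell make-up, the depth or the handling of this library had in its low microglia markers was not tested.

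**Figure D4:**
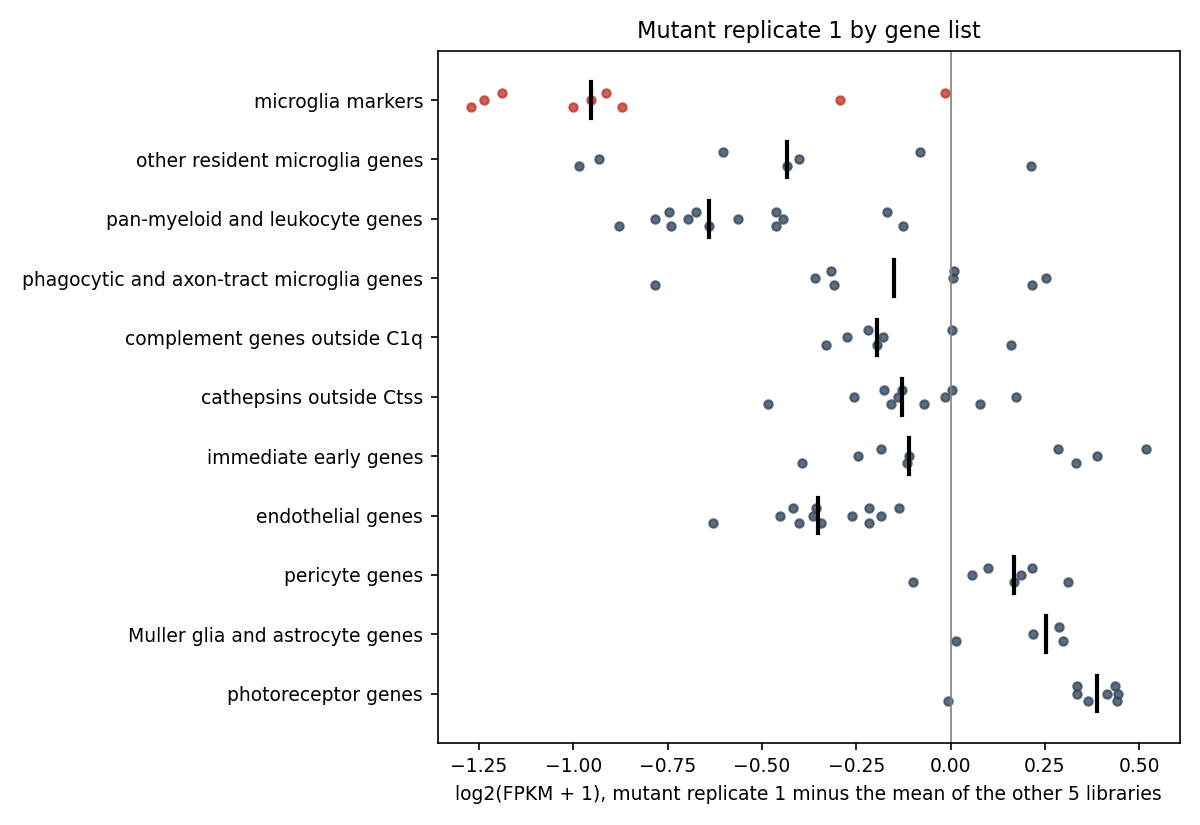
Each tested gene of a list as a point, placed by its log2(FPKM + 1) value in mutant replicate 1 minus the mean of the other 5 libraries (horizontal axis), with a bar at the list's median. The microglia markers centre on -0.95, the leukocyte genes on -0.64 and the endothelial genes on -0.35, while the photoreceptor genes centre on 0.39. The other 5 libraries include control replicate 3, which held the highest endothelial sum.

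The genes most like the markers across the 6 libraries were ranked by the root mean square distance of their centred log2(FPKM + 1) values from the mean profile of the 9 markers. Of the members, Ctss lay closest to that mean (0.0752), followed by Cx3cr1 (0.101), C1qc (0.126), Csf1r (0.132), Tyrobp (0.180), C1qa (0.189) and C1qb (0.201). P2ry12 (0.290) and Aif1 (0.369) lay farther off, beside a median of 0.400 over all tested genes. These distances include the members' own part in the mean.

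Among genes outside the 9, the closest was Fcer1g, the Fc receptor gamma chain, an adaptor built like Tyrobp, at a distance of 0.0712. It measured 2.02, 4.0 and 5.08 FPKM in mutant replicates 1, 2 and 3, against 4.04, 4.08 and 3.23 FPKM in control replicates 1, 2 and 3. Next was Adgre1, which encodes the macrophage surface protein F4/80, at 0.0873. It measured 0.556, 1.69 and 2.26 FPKM in the mutants, against 2.167, 2.23 and 1.64 FPKM in the controls. The next 8 were Gm5617, 1700084E18Rik, Fxyd6, Slc16a3, 9330162012Rik, Tepp, Syt5 and Pex11g, with distances from 0.116 to 0.151. Of the 10, Fcer1g was the only 1 on any of the gene lists used here. Slc16a3, a lactate transporter, measured 3.50, 6.89 and 10.4 FPKM in the mutants, against 7.28, 6.17 and 5.83 FPKM in the controls.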

How the data were processed

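TruSeq RNA v2 libraries were sequenced, per the labels. The authors deposited 1 FPKM value per library for each of 24421 gene symbols. The submitters' processing notes name Cufflinks 2.2.1, STAR 2.5.0b, DESeq2 and bedtools 2.17.0, with mm10 as build and with no roles. Annotation and strandedness are not stated in the labels. The design also allowed for counts, but the values are FPKM, so limma was used.

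The 13622 genes that reached 1 FPKM in 3 or more libraries were tested on log2(FPKM + 1), a scale that understates changes of low genes, with limma 3.58.1 in R 4.3.3 (trended prior, two-sided, Benjamini-Hochberg threshold 0.05). Single genes also had exact permutation tests in scipy 1.17.1. Reads were recovered from the steps between low values and came out whole for 100% of the 16491 rows above 0 in all libraries (tolerance 0.002 reads, at most 0.05). They gave limma voom as an alternative, and the fit was tested on simulated data. Exact 95% intervals on read ratios cover counting error only. Positions are from GENCODE M21, matched by symbol.

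The members and gene lists were chosen with earlier results of these data known. Named genes are the 9 markers, Anxa3, all ligands and partners and other microglia genes, up to 4 of each other list by mean FPKM, and the 10 nearest profiles. Results for 2 genes that this rule names are not reported here. Hmgxb3 was named for its overlap with Csf1r. Other fits changed the pseudocount (0.1), filter, normalization, weights, prior, covariates, blocks, threshold (0.1) or left out a library.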

Additional observations from a re-analysis of the deposited data

How the results depend on the processing

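The count of markers passing limma was 0 under all 18 alternatives, with a smallest Benjamini-Hochberg adjusted p of 0.175, under library weights. The count over all genes was 0 in each of them except with library weights, which gave 145 genes. The weights were lowest in control replicate 3 (0.26) and mutant replicate 1 (0.295). They were highest in mutant replicate 2 (7.0) and control replicate 2 (3.35), so that fit draws mostly on these 2 libraries. Among single markers, 142 of 152 alternative values kept their direction, a count that includes settings that cannot alter a value. Those settings are the changed filters, the robust prior and the replicate block. Median-of-ratios scaling could hardly alter a value either, with a size factor of 1.0022 in every library. Of the 10 values that changed direction, 7 came without mutant replicate 1: C1qa (0.31), C1qb (0.014), C1qc (0.26), Csf1r (0.012), Ctss (0.088), Cx3cr1 (0.0011) and Tyrobp (0.21). C1qa (0.02) and P2ry12 (0.0095) turned without control replicate 1, and P2ry12 (0.035) with library weights; the cause was not tested. Over single omitted libraries the log2 difference ran from 0.16 to 0.50 for Aif1, -0.48 to 0.31 for C1qa, -0.72 to 0.01 for C1qb, -0.49 to 0.26 for C1qc, -0.53 to 0.01 for Csf1r, -0.50 to 0.09 for Ctss, -0.47 to 0.00 for Cx3cr1, -0.25 to 0.01 for P2ry12 and -0.62 to 0.21 for Tyrobp. For Aif1 it was 0.53 with a pseudocount of 0.1 and 0.56 with limma voom, against 0.29 in the fit of all libraries. Over the other settings with all libraries it ran from -0.26 to -0.02 for C1qa, -0.60 to -0.32 for C1qb, -0.25 to -0.10 for C1qc, -0.45 to -0.20 for Csf1r, -0.35 to -0.21 for Ctss, -0.37 to -0.23 for Cx3cr1, -0.18 to 0.03 for P2ry12 and -0.37 to -0.21 for Tyrobp. The mean difference of the 9 markers was -0.18 in the fit of all libraries, from -0.42 without mutant replicate 3 to 0.14 without mutant replicate 1, and -0.27 with the library letters as a block. Anxa3 stayed negative, at -1.15 to -0.53 over omitted libraries, -0.53 being without control replicate 3. With the endothelial mean as a covariate it was -0.76, against -0.93 in the fit of all libraries. Across all genes tested, deviations from the group means correlated at 0.249, -0.151 and 0.391 between same-numbered mutant and control libraries. Between different numbers the correlations ran from -0.352 to 0.231, so replicate numbers did not pair the libraries uniformly. By letter, with the division into A to C and D to F made here, they were 0.249, 0.231, 0.0837 and 0.391 within a division and -0.352 to 0.025 across divisions. Deviations from a group mean cancel out within the group, so these correlations are not independent and do not show that the division is a batch. A fit with the replicate block called 0 genes, with 0 of 9 markers passing. That block cannot move the mean difference, which stayed at -0.18, because each replicate number holds a mutant and a control library. The precision of Aif1 and P2ry12 is limited by reads, with as few as 16 for Aif1 and 58 for P2ry12 in a library.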
